A study of Mus musculus with 4 samples.

Results

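The spots described here are the 568 hippocampus spots that the deposited spot table puts in expression cluster 8, of 10549 spots over tissue in all. They were selected by 2 deposited columns, the coarse region name Hippocampus and the expression cluster number. They make up 568 of the 1037 hippocampus spots. The section of the 5xFAD-Dp16 mouse held 159 of them, that of the Dp16 mouse 150, that of the 5xFAD mouse 132 and that of the Wild-type mouse 127.

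The series measured RNA in brain hemisphere sections with Visium, a slide printed with barcoded spots, where a unique molecular identifier (UMI) counts each captured RNA molecule. A spot is a small region of tissue that can hold several cells or parts of them. There was 1 section for each of 4 genotypes, cut at 10 µm between bregma +1 and -2 mm from male mice of 9 months, fixed in methanol. The comparison asks how a trisomy model and an amyloid model differ, alone and together.

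The 5xFAD-Dp16 mouse carried both the Dp16 duplication and the 5xFAD transgenes, the Dp16 mouse the duplication alone, the 5xFAD mouse the transgenes alone, and the Wild-type mouse neither, on C57BL/6J as its label gives it. Dp16 is a duplication of the stretch of mouse chromosome 16 that is syntenic with human chromosome 21, so that its genes are present in 3 copies. The 5xFAD transgenes include human APP with mutations of familial Alzheimer's disease, and the promoter of the Thy1 gene, active in neurons, drives them. With 1 mouse per genotype no p-value was computed, and each interval below is a 95% interval that covers counting error only.

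The hippocampus is built in layers. The cell bodies of its principal neurons are packed into narrow sheets, the pyramidal layers of CA1 to CA3 and the granule layer of the dentate gyrus. Between these sheets lies neuropil, made of dendrites, axons and synapses with astrocytes, microglia, vessels, scattered interneurons and myelinated fibres. Some RNAs, among them Bc1 and Camk2a, are carried out of neuronal cell bodies into dendrites, and mitochondria are abundant there. These layers matter for an amyloid model because plaques form largely in neuropil, where microglia and astrocytes gather round them.

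The working label of these spots, hippocampal principal cell layer, went against the data. The deposited fine names of the spots were CA1_sr (136 spots), DG_mo (110), CA3_sr (89), CA1_slm (81), CA1_so (68), CA3_so (67), DG_po (14), CA3_sp (2) and CA1_sp (1), and DG_sp did not occur among them. The files do not spell these names out. In common use sp is the cell body layer, while so, sr, slm, mo and po are the strata oriens, radiatum and lacunosum-moleculare, the molecular layer and the polymorph layer. All 69 DG_sp spots were in cluster 18, 70 of 77 CA1_sp spots in cluster 19 and 50 of 57 CA3_sp spots in cluster 20. Cluster 8 held 81 of 96 CA1_slm, 136 of 168 CA1_sr, 89 of 110 CA3_sr, 110 of 173 DG_mo, 67 of 103 CA3_so, 68 of 131 CA1_so and 14 of 53 DG_po spots. The spots are called cluster 8 spots below, by their rule, and their leading genes were Bc1, Lrrc17 and genes of the mitochondrial genome.

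**Figure D1:**
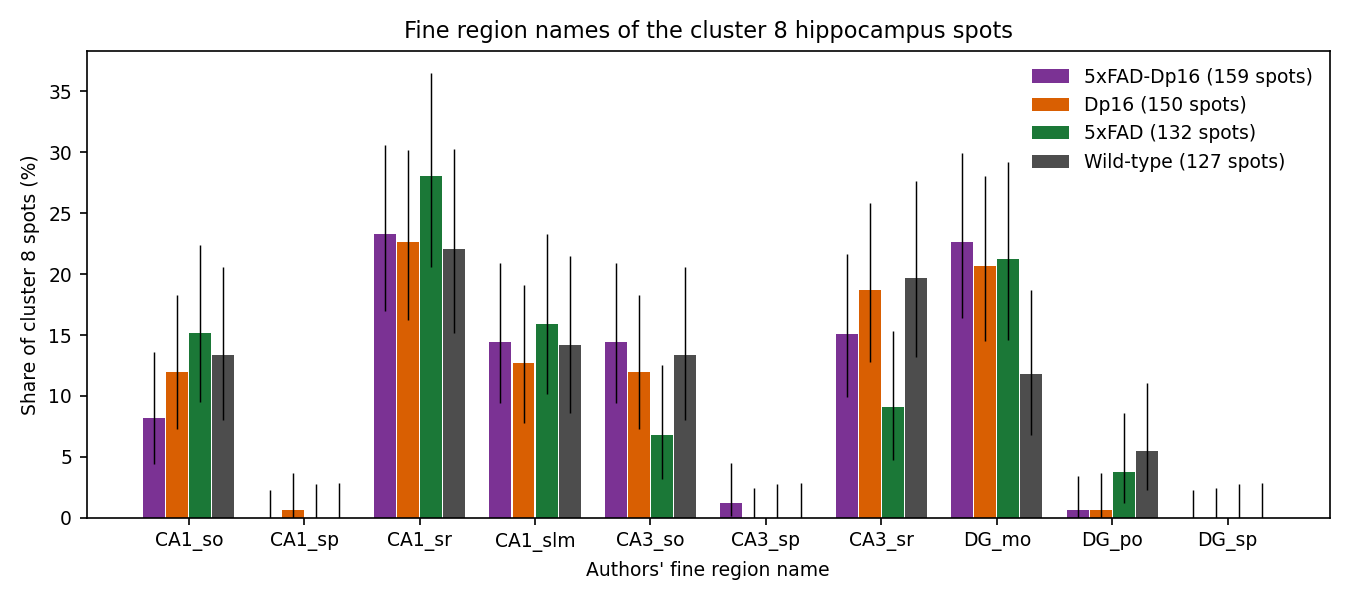
Share of the cluster 8 hippocampus spots with each fine name (x axis), as percent of the section's cluster 8 spots (y axis), by section, with exact Clopper-Pearson intervals as error bars. DG_mo took 20.7 to 22.6% of the cluster 8 spots in the 3 sections with a duplication, a transgene or both, and 11.8% in Wild-type.

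Cluster 8 took a like share of the hippocampus spots in each section. The shares were 51.8% [46.0 to 57.5] in 5xFAD-Dp16, 58.1% [51.9 to 64.2] in Dp16, 55.0% [48.5 to 61.4] in 5xFAD and 54.7% [48.1 to 61.3] in Wild-type, and these exact Clopper-Pearson intervals all overlapped. The make-up by fine name was less even, as the plot of fine names by section shows. DG_mo made up 22.6% in 5xFAD-Dp16, 20.7% in Dp16, 21.2% in 5xFAD and 11.8% in Wild-type, where only 15 spots carried the name. CA3_sr made up 15.1% in 5xFAD-Dp16, 18.7% in Dp16, 9.09% in 5xFAD and 19.7% in Wild-type. CA3 names were thus scarcest in 5xFAD and dentate names in Wild-type, which bears on every comparison of genotypes below, and levels standardised to 1 common make-up were computed as an alternative.

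The cluster 8 spots were shallow. They summed to 1140526 UMIs in 5xFAD-Dp16, 1054474 in Dp16, 920739 in 5xFAD and 1259410 in Wild-type. Median UMIs per spot were 6893 in 5xFAD-Dp16, 6427.5 in Dp16, 6754.5 in 5xFAD and 9237 in Wild-type, while the other hippocampus spots of the same sections had medians between 12430 and 22660. Mitochondrial genes gave 28.2, 28.2, 24.6 and 27.0% of the UMIs of cluster 8 spots in 5xFAD-Dp16, Dp16, 5xFAD and Wild-type, against 8.83 to 10.2% in the other hippocampus spots. Ribosomal protein genes gave 12.2, 11.9, 13 and 9.36% in the same order of sections. Between 44 and 78 array barcodes of cluster 8 spots recurred between any 2 sections, which are positions on the slide and not shared tissue. Levels below are CPM, a gene's UMIs summed over a section's cluster 8 spots per 1000000 UMIs of those spots. A level of 10 CPM, the mean level that a gene had to reach (8021 genes), was worth 9.21 UMIs in the shallowest section.

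The defining feature of cluster 8 against the other hippocampus spots was a high level of Bc1 and of mitochondrial RNA with a low level of the genes shared by principal neurons. The cluster was made from the expression of these genes, so the comparison is a description of what the cluster is. Of the 8021 genes, 145 (1.81%) were at least 1.5-fold higher in cluster 8 in all 4 sections and 1156 (14.4%) at least 1.5-fold lower. At any size, 8.15% of genes were higher and 62.7% lower in all 4. The median log2 ratio over all genes lay below 0, at -0.52 in 5xFAD-Dp16, -0.51 in Dp16, -0.43 in 5xFAD and -0.45 in Wild-type.

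Bc1, a short non-coding RNA of rodents that is transcribed by RNA polymerase III and represses translation in dendrites, led the genes that were higher. Bc1 had 19881 CPM in cluster 8 against 5629 CPM in the other hippocampus spots of 5xFAD-Dp16, 8533 against 1880 in Dp16, 10401 against 2394 in 5xFAD and 7727 against 1368 in Wild-type. In log2 terms it was higher by 1.82, 2.18, 2.12 and 2.50 in 5xFAD-Dp16, Dp16, 5xFAD and Wild-type. In the spots of clusters 18, 19 and 20, which hold nearly all spots named as cell body layers, Bc1 stood lower still, at 3056, 937, 1342 and 974 CPM in the same order. The gene is on chromosome 7 at 144914470 to 144914623 of GRCm38.p6, the assembly of mm10. The window from 250 bases before to 50 bases after its start, chr7:144914220-144914519 on the plus strand from RefSeq, is shown because it holds the first part of the RNA that marks these spots, and the 50 transcribed bases are in capitals.
Bc1: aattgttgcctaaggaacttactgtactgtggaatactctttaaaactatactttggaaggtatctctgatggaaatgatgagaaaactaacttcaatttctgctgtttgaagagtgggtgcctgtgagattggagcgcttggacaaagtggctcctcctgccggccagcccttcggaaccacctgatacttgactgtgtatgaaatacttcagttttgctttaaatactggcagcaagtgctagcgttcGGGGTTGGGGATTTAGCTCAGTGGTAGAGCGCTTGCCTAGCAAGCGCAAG

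Lrrc17, which encodes a secreted leucine-rich repeat protein, was the second highest. Lrrc17 was at 250 CPM in 5xFAD-Dp16, 122 in Dp16, 136 in 5xFAD and 103 in Wild-type, higher than in the other hippocampus spots by 2.01, 2.29, 1.72 and 2.18 on the log2 scale. The rest of the 10 highest were mitochondrial genes, mt-Nd6, mt-Nd4l, mt-Co2, mt-Nd5, mt-Atp8, mt-Nd3, mt-Nd2 and mt-Co1, which encode subunits of the respiratory chain. Of 13 protein-coding genes of the mitochondrial genome, 13 were at least 1.5-fold higher in all 4 sections. The dendritic kinase RNA Camk2a was higher by 0.61, 0.45, 0.35 and 0.51 in 5xFAD-Dp16, Dp16, 5xFAD and Wild-type. A list of 14 RNAs known to be localised to dendrites was added after values had been seen. Of these, 6 were higher and 6 lower in all 4 sections, against 8.15 and 62.7% of all genes.

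The general astrocyte and homeostatic microglia genes were higher in cluster 8. Of 16 astrocyte genes, 10 were at least 1.5-fold higher in all 4 sections and 16 were higher at all, against 1.81 and 8.15% of all genes. Glul, the glutamine synthetase of astrocytes, was at 516 CPM in 5xFAD-Dp16, 498 in Dp16, 601 in 5xFAD and 594 in Wild-type, higher than in other hippocampus spots by 1.24, 1.28, 1.51 and 1.40. Slc1a2, the glutamate transporter of astrocytes, was higher by 1.11, 0.90, 1.12 and 0.86 in the same order. Of 12 genes of homeostatic microglia 7 were at least 1.5-fold higher, as were 5 of 10 endothelial and mural genes. Of 19 myelin genes 0 reached that fold in all 4 sections in either direction and 8 were higher at all. The glial lists tied to plaques and reaction had members on both sides. Of 32 plaque-associated microglia genes 1 was at least 1.5-fold higher and 0 lower, with 9 higher and 5 lower at any size. Of 7 reactive astrocyte genes 0 were at least 1.5-fold higher and 1 was at least 1.5-fold lower, with 4 higher and 2 lower at any size. Among all genes 14.4% were at least 1.5-fold lower, and at any size 8.15% were higher and 62.7% lower.

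Most genes of principal neurons went the other way. Of 16 genes shared by principal cells, 12 were at least 1.5-fold lower in cluster 8 in all 4 sections and 0 at least 1.5-fold higher. At any size 13 were lower and 2 higher, Camk2a among the latter, against 62.7 and 8.15% of all genes. Hpca, the calcium sensor hippocalcin of pyramidal cells, had 516 CPM in cluster 8 against 2819 in the other hippocampus spots of 5xFAD-Dp16, 845 against 3019 in Dp16, 581 against 2857 in 5xFAD and 961 against 2733 in Wild-type. Cluster 8 thus held Hpca at the lower level in every section, by -2.45, -1.84, -2.30 and -1.51 on the log2 scale. The other 9 lowest genes were Ctxn1, Rab40b, Tceal5, Olfm1, Sema4f, Mindy3, Tceal3, Lratd1 and Ube2e2. Olfm1, a secreted olfactomedin of neurons, was lower by -1.69, -1.49, -1.63 and -1.45. Of the calcium and calcineurin genes 10 of 20 were at least 1.5-fold lower, as were 8 of 23 presynaptic genes, 5 of 24 voltage-gated channel genes and 4 of 16 immediate early genes, against 14.4% of all genes. The glutamate receptor and postsynaptic genes were close to that background, with 4 of 29 lower and 1 higher.

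Of the 5 markers tied to the working label, 0 were higher in cluster 8 in all 4 sections. Spink8, a CA1 pyramidal gene, had 78.0 CPM in cluster 8 against 182 in the other hippocampus spots of 5xFAD-Dp16, 99.6 against 228 in Dp16, 98.8 against 224 in 5xFAD and 96.9 against 149 in Wild-type. Fibcd1, also of CA1, was lower by -0.59, -0.99, -0.79 and -0.48 in 5xFAD-Dp16, Dp16, 5xFAD and Wild-type. C1ql2, a synaptic protein of dentate granule cells, was lower by -0.53, -0.49, -0.40 and -1.71, and Lrrc10b by -0.78, -0.25, -1.11 and -0.39. Cabp7, a calcium-binding protein, was lower by -0.34, -0.13 and -0.53 in 5xFAD-Dp16, Dp16 and 5xFAD and higher by 0.25 in Wild-type. So 4 of 5 markers were lower in cluster 8 in every section, as were 62.7% of all genes, and 3 of 5 when mitochondrial, ribosomal protein and haemoglobin genes were left out of the total. Against clusters 18, 19 and 20 alone the number was again 4. Some of the ratios lay above the all-gene median of their section, among them those of Lrrc10b in Dp16 and Wild-type and of C1ql2 in 5xFAD.

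**Figure D2:**
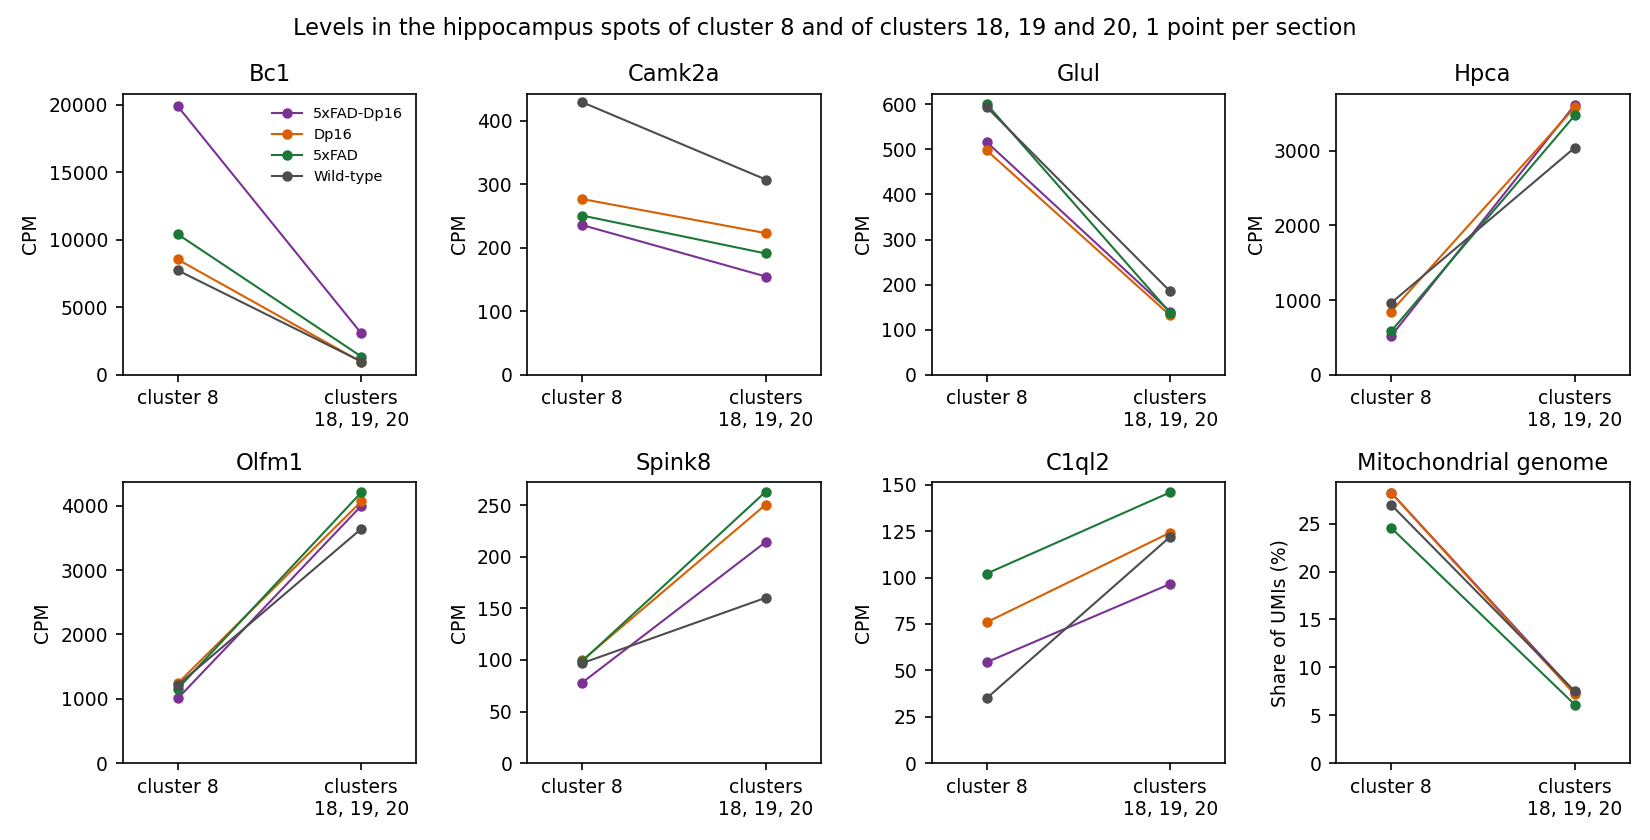
Levels in the hippocampus spots of cluster 8 (left) and of clusters 18, 19 and 20 (right), 1 point per section, as CPM for 7 genes and as percent of UMIs for the mitochondrial genome. Bc1, Camk2a, Glul and the mitochondrial genome were higher in cluster 8 in every section, and Hpca, Olfm1, Spink8 and C1ql2 lower, with Bc1 at 19881 CPM in cluster 8 of 5xFAD-Dp16.

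Within cluster 8 gene levels differed between the fine names, by subfield for some genes and across subfields for others. Bc1 was highest in CA1_sr in every section, at 29873 CPM in 5xFAD-Dp16, 12439 in Dp16, 14177 in 5xFAD and 10440 in Wild-type. Among the 6 larger names it was lowest in DG_mo in every section, at 12252, 5757, 6401 and 5449 CPM in that order, while the order of the other 4 differed between sections. The levels that follow are means over the 4 sections with equal weight. Spink8 averaged 240 CPM in CA1_so, 179 in CA3_so and 121 in CA1_sr, against 14.3 in DG_mo, where it was lowest of the 6 in every section. Fibcd1 averaged 93.5 CPM in CA1_so, its highest level in every section, and had no UMI in CA3_so. C1ql2 ran the opposite course, with 150.2 CPM in DG_mo, highest of the 6 in every section, 82.6 in CA1_sr and 1.94 in CA3_so. In DG_mo C1ql2 was the leading gene against the section's other cluster 8 spots in both sections with at least 30 such spots, by 2.01 in 5xFAD-Dp16 and 1.87 in Dp16.

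Bok, which is enriched in CA3 pyramidal cells, averaged 413 CPM in CA3_sr and 302 in CA3_so, against 66.0 to 90.7 in CA1 names and DG_mo, and both CA3 names lay above the other 4 in every section. Hpca was lowest in CA1_slm, at 280 CPM, and DG_mo, at 286 CPM, and averaged 656 to 1253 CPM in the other 4 names. Glul was highest in these same names, at 766 CPM in CA1_slm and 731 CPM in DG_mo. For both genes CA1_slm and DG_mo stood apart from the other 4 in every section. Gfap, the intermediate filament of astrocytes, averaged 289 CPM in CA1_slm, 263 in CA1_so and 247 in DG_mo, in an order that differed between sections. Mbp, a myelin protein, averaged 2459 CPM in CA3_so and 862 CPM in CA1_sr. The interneuron peptide Sst averaged 1733 CPM in CA1_so, highest in every section, against 54.1 to 371 CPM in the other 5. The median mitochondrial share of a spot was 26.9 to 36.4% over the sections in CA1_slm, 26.4 to 35.0% in DG_mo and 26.8 to 32.9% in CA1_sr, each above the other 3 larger names in every section. DG_po held at least 5 spots in 2 sections only, and there its spots were deeper than those of the other names, at medians of 9238 UMIs in 5xFAD and 16308 in Wild-type, with mitochondrial shares of 15.3 and 15%. The part of depth in these differences was not tested.

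The Dp16 duplication was visible in the cluster 8 spots as a higher level of the genes it carries. The segment spans chromosome 16 from 75540514 to 97962627 in GRCm38.p6, from Lipi to Zbtb21, and holds 112 genes of the files. Of these, 97 had a UMI in cluster 8 spots and 48 reached a mean of 10 CPM. Of those 48 genes, 46 were higher in Dp16 than in Wild-type, where 36.1% of all genes were, and 39 were higher in 5xFAD-Dp16 than in 5xFAD, where 35.3% of all genes were. In both pairs 38 were higher and 1 was lower, while 14.3% of all 8021 genes were higher and 42.9% lower in both. Their median log2 ratio stood 0.64 above the median of all genes in the first pair and 0.57 above it in the second. A gene present in 3 copies and expressed in proportion would stand at the log2 of a 1.5-fold difference, 0.58.

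The median of all genes was itself below 0 in both Dp16 pairs, at -0.14 for Dp16/Wild-type (Dp16 divided by Wild-type) and -0.15 for 5xFAD-Dp16/5xFAD, and at -0.06 in both 5xFAD pairs. With TMM scaling, which sets the bulk of genes equal, these medians became -0.04, 0.00, -0.03 and 0.00. Medians of gene lists are therefore stated below after subtraction of the all-gene median. In bulk sums such as these, fewer cells of a type and less RNA per cell cannot be told apart.

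**Figure D3:**
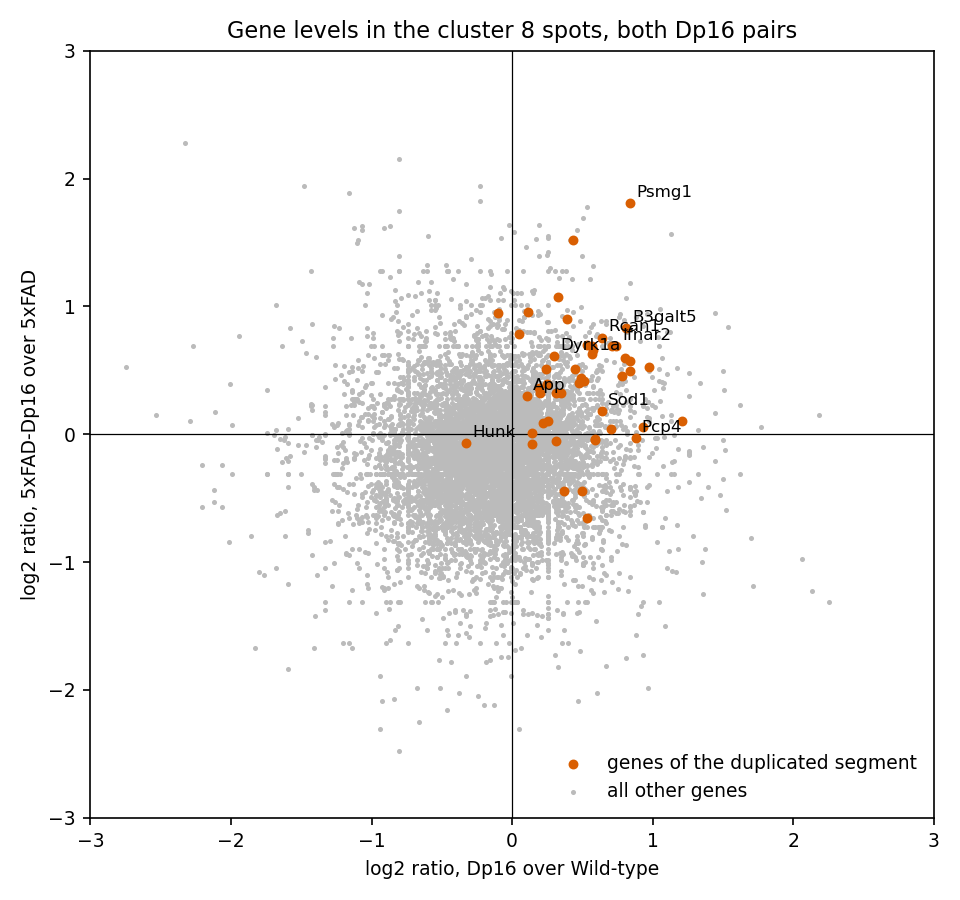
Log2 ratio of Dp16/Wild-type (x axis) against 5xFAD-Dp16/5xFAD (y axis) for the segment genes of at least 10 CPM and all other genes in cluster 8 spots. Most segment genes lie above 0 on both axes; 1 gene lies outside the axes of 3 log2 units.

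A gene is called below when it differs by 1.5-fold or more in the same direction in both pairs. Of the 48 segment genes 6 were called higher, of 40 genes (0.499%) called higher in all. The 10 highest by the smaller ratio of the 2 pairs were Psmg1, B3galt5, Ifnar2, Mrps6, Rcan1, Hspa13, Dop1b, Ifnar1, Cfap298 and Atp5j. Atp5j, a subunit of the mitochondrial ATP synthase at 84827871 to 84835857 on chromosome 16, had 1286 CPM in Dp16 against 869 in Wild-type and 1298 in 5xFAD-Dp16 against 838 in 5xFAD. Its log2 ratios were 0.57 [0.45 to 0.68] and 0.63 [0.50 to 0.76]. Both sections with the duplication lay above both without, an order whose share over all genes is not given here. Atp5o, another subunit of that enzyme, was at 703 CPM in Dp16 against 516 in Wild-type and at 680 in 5xFAD-Dp16 against 476 in 5xFAD.

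Mrps6, of the small subunit of the mitochondrial ribosome, was the only called segment gene with both intervals above 0, at 0.71 [0.21 to 1.22] and 0.69 [0.15 to 1.25]. Ifnar1 and Ifnar2 encode the chains of the type I interferon receptor. Ifnar2 had 39.8 CPM in Dp16 against 23.8 in Wild-type and 36.8 in 5xFAD-Dp16 against 22.8 in 5xFAD, and Ifnar1 19.9 against 11.1 and 21.0 against 14.1. Rcan1, an inhibitor of calcineurin, had 40.8 CPM in Dp16 against 26.2 in Wild-type and 40.3 in 5xFAD-Dp16 against 23.9 in 5xFAD. These sets did not overlap between sections with and without the duplication, although each interval of Rcan1 and Ifnar1 reached below 0. The share of all genes without such overlap is not given here.

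Segment genes that are often discussed in Down syndrome were less even. App, whose mouse protein is the precursor of amyloid beta, had 597 CPM in Dp16 against 556 in Wild-type and 608 in 5xFAD-Dp16 against 495 in 5xFAD, with log2 ratios of 0.10 [-0.05 to 0.26] and 0.30 [0.12 to 0.47]. Dyrk1a, a kinase of neuronal development, was higher by 0.30 [-0.41 to 1.00] and 0.61 [-0.08 to 1.33]. Sod1, the cytosolic superoxide dismutase, was higher by 0.64 [0.39 to 0.89] in Dp16/Wild-type and by 0.18 [-0.08 to 0.44] in 5xFAD-Dp16/5xFAD. Pcp4, a calmodulin-binding peptide abundant in CA2 and dentate neurons, was higher by 0.88 in the first pair and stood at -0.03 in the second. Hunk was the 1 segment gene below 0 in both pairs, at -0.33 and -0.07, and Gart, Usp16 and Nrip1 lay below 0 in the second pair alone.

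Segment medians relative to all genes were 0.50 and 0.52 in clusters 18, 19 and 20 of the hippocampus and 0.54 and 0.62 outside the hippocampus, in the order Dp16/Wild-type and 5xFAD-Dp16/5xFAD. The cluster 8 values of 0.64 and 0.57 were thus of the size seen in the rest of the sections.

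Among the genes elsewhere in the genome, 34 were called higher with the duplication and 243 (3.03%) lower. That split moved with the scaling, to 77 higher and 107 lower with TMM factors. Most of these genes were thinly counted, and 3 of the 34 and 40 of the 243 had both counting intervals beyond 0. The 3 were Thrsp, Nudt18 and Ttr. Thrsp, a regulator of lipid synthesis, had 123 CPM in Dp16 against 76.2 in Wild-type and 166 in 5xFAD-Dp16 against 101 in 5xFAD. Nudt18, a hydrolase of oxidised nucleotides, had 42.7 against 24.6 CPM and 46.5 against 25.0 CPM in the same pairs.

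Ttr, which encodes the thyroxine carrier transthyretin made in quantity by the choroid plexus, had 828 CPM in Dp16 against 285 in Wild-type and 405 in 5xFAD-Dp16 against 227 in 5xFAD. Its log2 ratios were 1.54 [1.36 to 1.72] and 0.84 [0.60 to 1.08]. Ttr varied between the sections outside these spots too. Outside the hippocampus it was at 35190 CPM in Dp16 against 7524 in Wild-type, and at 15725 in 5xFAD-Dp16 against 20955 in 5xFAD. Among the 12 choroid plexus markers only Ttr and Enpp2 reached 10 CPM in cluster 8 spots, and the list summed to 968 CPM in Dp16, 568 in 5xFAD-Dp16, 397 in Wild-type and 356 in 5xFAD. The part of RNA from the choroid plexus in the Ttr difference was not tested.

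The remaining 9 genes among the 10 highest outside the segment were S100a11, Olfm2, Vamp3, R74862, Pigf, Gtf2h2, Plekhh1, Sgpp1 and 2310010J17Rik. S100a11, a calcium-binding protein of glia and other cells, had 10.4 CPM in Dp16 against 4.76 in Wild-type and 19.3 in 5xFAD-Dp16 against 6.52 in 5xFAD. Vamp3, a vesicle fusion protein, had 23.7 against 8.73 and 27.2 against 14.1 CPM. These values rest on between 6 and 31 UMIs per section.

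The 10 lowest genes outside the segment were Cpne9, Larp7, Kcnf1, Gpr26, Ccsap, Wdr54, Lrrc28, Myadm, Epc2 and Cyth3. Cpne9, of the copine family of calcium-dependent membrane-binding proteins, had 7.59 CPM in Dp16 against 27.0 in Wild-type and 6.14 in 5xFAD-Dp16 against 19.5 in 5xFAD, lower by -1.83 [-3.15 to -0.69] and -1.67 [-3.17 to -0.34]. Kcnf1, a modifying potassium channel subunit, was lower by -1.41 and -1.67, and the orphan receptor Gpr26 by -1.40 and -1.42. Sorl1, a sorting receptor that handles App, had 53.1 CPM in Dp16 against 92.9 in Wild-type and 51.7 in 5xFAD-Dp16 against 93.4 in 5xFAD, with ratios of -0.81 [-1.29 to -0.34] and -0.85 [-1.36 to -0.36]. Neurod2, a transcription factor of excitatory neurons, was lower by -0.80 [-1.29 to -0.32] and -0.66 [-1.27 to -0.06], and Rgs14, a signalling regulator known from CA2, by -0.69 [-1.25 to -0.15] and -0.82 [-1.49 to -0.17].

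Each neuronal list below had at most 1 member called lower in the Dp16 pairs, where 3.03% of all genes were called lower. The relative median of the principal cell genes was -0.09 and -0.19, with 1 of 16, Neurod2, called lower. The presynaptic genes stood at -0.26 and -0.11 with 0 of 23 called, and 19 of 23 were lower in both pairs, against 42.9% of all genes. The glutamate receptor genes stood at -0.08 and -0.19 with 1 of 29, Homer2, called lower. The CA3 list stood at -0.39 and -0.16, with 1 of 9 called lower, and the CA2 list at -0.43 and -0.65, with 1 of 3, Rgs14, called lower. The dentate granule list stood at 0.57 and -0.72 and the inhibitory neuron list at -0.51 and 0.53, on opposite sides in the 2 pairs. Myelin genes stood at 0.33 and 0.57 with 0 of 19 called. At any size 12 of the 19 were higher and 1 lower in both pairs, against 14.3 and 42.9% of all genes. Bc1, so prominent in these spots, differed by 0.14 [0.10 to 0.18] in Dp16/Wild-type and by 0.93 [0.90 to 0.97] in 5xFAD-Dp16/5xFAD. Its level was higher in 5xFAD-Dp16 than in any other section, also in the CA1_sr spots alone.

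**Figure D4:**
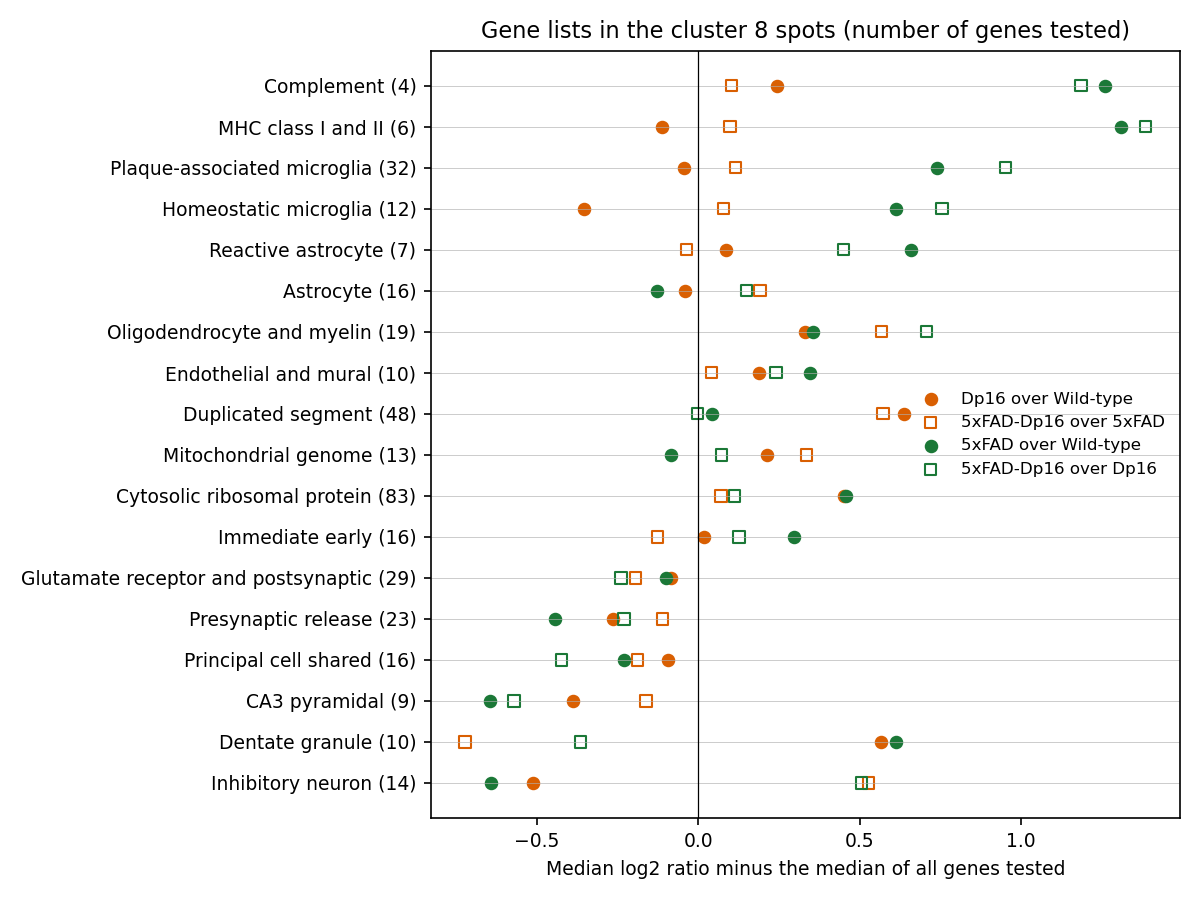
Median log2 ratio of each gene list minus the median of all genes (x axis) in the 2 Dp16 pairs and the 2 5xFAD pairs, in cluster 8 spots. Complement, MHC and plaque-associated microglia lists lie above 0 in both 5xFAD pairs, and the segment in both Dp16 pairs.

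The 5xFAD transgenes went with a higher level of microglial, complement, antigen presentation and astrocyte filament genes in cluster 8. In all, 129 genes (1.61%) were called higher in 5xFAD/Wild-type and 5xFAD-Dp16/Dp16, and 172 (2.14%) were called lower, 1 of them in the segment. Of those outside the segment, 40 of 129 and 47 of 171 had both intervals beyond 0. Median of ratios scaling gave 164 higher and 130 lower. These 2 pairs share no section with each other, but they use the same 4 sections as the Dp16 pairs.

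The 10 highest genes were Cst7, Thy1, Trem2, Gfap, Lyz2, Cd52, Ccl6, Lgals3bp, Ifi27l2a and Cd74. Thy1, at 44043384 to 44048579 on chromosome 9 and the source of the transgene promoter, had 1297 CPM in 5xFAD against 434 in Wild-type and 1145 in 5xFAD-Dp16 against 360 in Dp16. Its log2 ratios were 1.58 [1.43 to 1.73] and 1.67 [1.5 to 1.84]. In clusters 18, 19 and 20 the ratios were 2.18 and 2.02, and outside the hippocampus 1.3 and 1.25. The human transgenes themselves were not analysed here. Mouse App had ratios of -0.17 [-0.34 to 0.01] and 0.03 [-0.13 to 0.18].

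Microglial genes known from amyloid plaques were higher almost throughout. Cst7, the cystatin F of activated microglia, had 33 UMIs in 5xFAD and 44 in 5xFAD-Dp16 and none in Wild-type or Dp16, and with a floor of 3 UMIs per section its log2 ratios were at least 3.91 and at least 3.76. Trem2, the lipid receptor of microglia, had 70.6 CPM in 5xFAD against 23.8 in Wild-type and 79.8 in 5xFAD-Dp16 against 29.4 in Dp16. Its signalling partner Tyrobp had 306 against 131 and 359 against 156 CPM. Lysozyme (Lyz2) was higher by 1.61 [0.97 to 2.28] and 1.60 [0.89 to 2.36]. For each of these genes both sections with the transgenes lay above both without, and the share of all genes in that order is not given here.

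Of the 32 measured members of the plaque-associated microglia list, 18 were called higher and 0 lower, against 1.61 and 2.14% of all genes. In both pairs 29 were above 0, as were 21.5% of all genes. Cst7 passed the level filter only through the sections with the transgenes, so it could be called only as higher. Over the sections Ccl6 ranged from 1.90 to 26.1 CPM, Cd52 from 3.97 to 61.4 and Lgals3bp from 6.35 to 39.5. The 18 include these members, so the filter favoured part of that count. The list's median stood 0.74 and 0.95 above that of all genes. Ctsd, a lysosomal protease, was higher by 0.59 [0.39 to 0.80] and 0.81 [0.60 to 1.02]. Apoe, the lipid carrier, was higher by 0.36 [0.28 to 0.44] and 0.20 [0.12 to 0.29]. Members that did not reach the fold in both pairs included Csf1, at -0.19 and 0.89, Lpl, at -0.47 and 0.23, and Axl, at 0.19 and -0.24.

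Genes of homeostatic microglia were on the higher side too. Their median stood 0.61 and 0.75 above all genes, with 10 of 12 above 0 in both pairs, against 21.5% of all genes. Only 1 of the 12 was called higher, against 1.61% of all genes. P2ry12, the purine receptor of surveying microglia, was at 54.3 CPM in 5xFAD against 47.6 in Wild-type and 52.6 in 5xFAD-Dp16 against 50.3 in Dp16, differences within counting error. Csf1r, the receptor of the microglial growth factor, was higher by 0.61 [0.17 to 1.06] and 0.48 [0.03 to 0.94].

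Complement genes were called higher in 4 of 4 cases, while 1.61% of all genes were called higher. The C1q chains C1qa, C1qb and C1qc, which start the classical pathway, were higher by 1.27, 0.89 and 1.14 in 5xFAD/Wild-type and by 1.10, 1.14 and 0.92 in 5xFAD-Dp16/Dp16. C4b, the next component, had 66.3 CPM in 5xFAD against 24.6 in Wild-type and 80.7 in 5xFAD-Dp16 against 33.2 in Dp16. Of 6 measured MHC genes 5 were called higher, among them H2-K1 by 1.29 [0.68 to 1.91] and 1.40 [0.73 to 2.10] and H2-D1 by 1.44 [1.00 to 1.89] and 1.25 [0.69 to 1.84]. B2m, the light chain of MHC class I, had 365 CPM in 5xFAD against 195 in Wild-type and 377 in 5xFAD-Dp16 against 166 in Dp16. Cd74, the invariant chain of MHC class II, had 32 UMIs in 5xFAD against 2 in Wild-type, a log2 ratio of 4.45 [2.48 to 7.56], and 9 UMIs in 5xFAD-Dp16 against 0 in Dp16, at least 1.47. Cd74 passed the level filter, a mean of 10 CPM over all 4 sections, only through 5xFAD, at 34.8 CPM. It could therefore be called only as higher, and it is among the 5 MHC genes counted.

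Interferon-stimulated genes were sparse, with 7 of 26 list members at 10 CPM or more. Of these 4 were called higher and 5 were above 0 in both pairs, against 1.61 and 21.5% of all genes. Ifitm3, a membrane restriction factor, had 53.2 CPM in 5xFAD against 23 in Wild-type and 60.5 in 5xFAD-Dp16 against 20.9 in Dp16. Bst2 was at 18.5 against 11.1 CPM and 34.2 against 8.54 CPM, and Ifi27l2a at 18.5 against 6.35 CPM and 68.4 against 2.85 CPM. Both were highest in the 5xFAD-Dp16 section, and the list's median stood 0.79 above all genes in 5xFAD/Wild-type and 1.64 above in 5xFAD-Dp16/Dp16. Ifi27l2a was below 10 CPM in both sections without the transgenes and passed the level filter through those with them. It is among the 4 called, so the filter favoured part of that count.

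The windows before and after the starts of B2m and Ctss are shown because both genes were called and both hold a short match to the element GAAANNGAAA, which interferon regulatory factors are known to bind. Ctss is a lysosomal protease of microglia and antigen-presenting cells, at 240 CPM in 5xFAD against 114 in Wild-type and 237 in 5xFAD-Dp16 against 101 in Dp16. The sequences are from RefSeq for GRCm38.p6, at chr2:122147437-122147736 for B2m and chr3:95526536-95526835 for Ctss, both on the plus strand, with the match in capitals. It begins 139 bases before the start of B2m and 21 bases before that of Ctss.
B2m: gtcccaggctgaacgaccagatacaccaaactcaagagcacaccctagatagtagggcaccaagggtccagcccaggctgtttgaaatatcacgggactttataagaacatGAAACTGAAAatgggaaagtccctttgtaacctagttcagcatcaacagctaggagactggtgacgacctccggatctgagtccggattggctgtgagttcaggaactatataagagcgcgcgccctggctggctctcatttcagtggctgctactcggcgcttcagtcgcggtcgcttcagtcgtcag
Ctss: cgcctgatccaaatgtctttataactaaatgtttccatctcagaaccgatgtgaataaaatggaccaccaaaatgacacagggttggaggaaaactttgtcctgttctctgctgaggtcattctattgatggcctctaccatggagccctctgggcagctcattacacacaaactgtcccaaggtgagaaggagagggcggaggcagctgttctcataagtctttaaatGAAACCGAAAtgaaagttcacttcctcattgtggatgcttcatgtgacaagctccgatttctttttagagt

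Searched on both strands of every window of 300 bases, the element was found in 1079 of 27025 windows (3.99%). Among the genes tested it was in 214 of 6398 windows (3.34%), and among the genes called higher with the 5xFAD transgenes in 6 of 104 (5.77%), namely B2m, Bst2, Cd300c2, Ctss, Ifitm3 and Wls. A match describes the letters of the window and is not evidence of binding.

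Gfap marked the astrocyte side. It had 280 CPM in 5xFAD against 103 in Wild-type and 294 in 5xFAD-Dp16 against 113 in Dp16, higher by 1.44 and 1.38. Of 7 reactive astrocyte genes 3 were called higher, against 1.61% of all genes. Serpina3n, a secreted protease inhibitor, was at 0.60 [-0.08 to 1.3] and 0.82 [0.02 to 1.65]. The 16 general astrocyte genes were not called, with medians of -0.13 and 0.15 against all genes, and Slc1a2, Glul and Aldoc among the most abundant. Myelin genes stood at 0.36 and 0.71, with 2 of 19, Ermn and Sox10, called higher.

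The plaque-associated microglia list stood 0.31 and 0.60 above all genes in clusters 18, 19 and 20 and 0.86 and 0.79 above outside the hippocampus, in the order 5xFAD/Wild-type and 5xFAD-Dp16/Dp16. The complement list stood 0.80 and 1.44 above in clusters 18, 19 and 20 and 1.11 and 1.06 above outside the hippocampus. MHC genes stood 0.32 and 0.90 above in clusters 18, 19 and 20 and 0.56 and 0.42 above outside, against 1.31 and 1.39 in cluster 8. These differences between places were not tested.

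**Figure D5:**
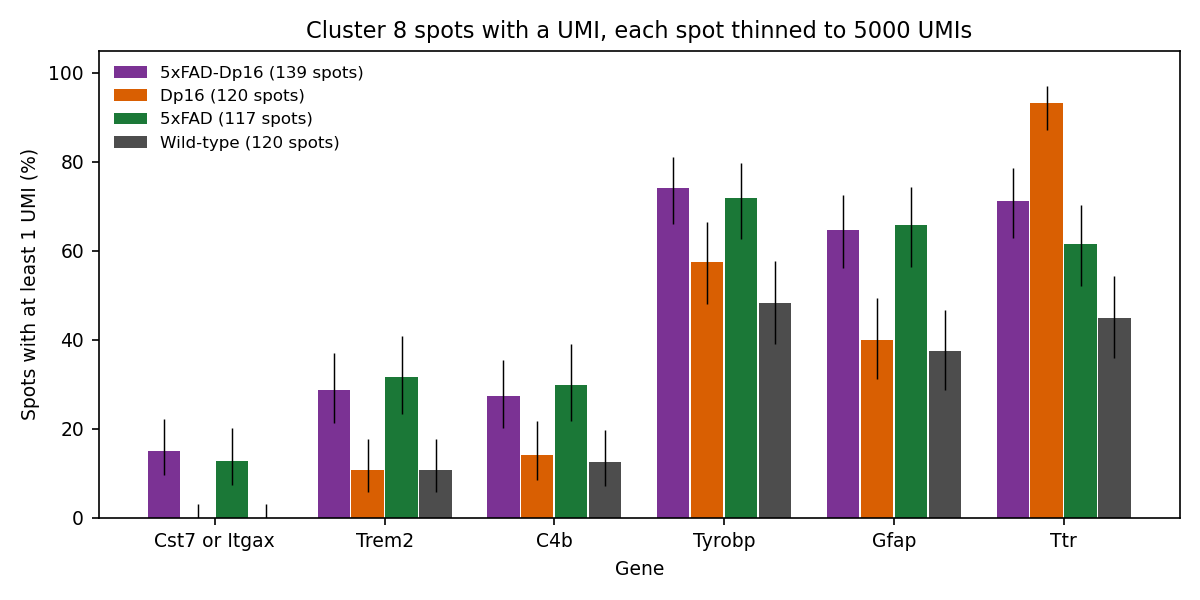
Percent of cluster 8 spots with at least 1 UMI of a gene after each spot was thinned to 5000 UMIs (y axis), by section, with exact Clopper-Pearson intervals. Spots with Cst7 or Itgax occurred in 5xFAD-Dp16 (15.1%) and 5xFAD (12.8%) and in no thinned spot of Dp16 or Wild-type.

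The genes also differed in how many spots held them. After thinning each spot to 5000 UMIs, which left 139 spots in 5xFAD-Dp16, 120 in Dp16, 117 in 5xFAD and 120 in Wild-type, Cst7 or Itgax was present in 15.1% [9.60 to 22.2] of 5xFAD-Dp16 spots and 12.8% [7.36 to 20.3] of 5xFAD spots. It was in 0 of 120 spots of Dp16 and 0 of 120 of Wild-type, which allows a share of up to 2.50% by a count of 3 and up to 3.03% by the exact Clopper-Pearson interval. Without thinning the shares were 20.1% in 5xFAD-Dp16, 0.667% in Dp16, 23.5% in 5xFAD and 0% in Wild-type. Trem2 was in 28.8, 10.8, 31.6 and 10.8% of thinned spots of 5xFAD-Dp16, Dp16, 5xFAD and Wild-type. Gfap was in 64.7, 40.0, 65.8 and 37.5% in that order, and unthinned in 76.1, 56.0, 71.2 and 57.5%. In thinned spots, the Trem2 and Gfap intervals of both sections with the transgenes lay above those of both without. Unthinned, the Gfap interval of 5xFAD (62.7 to 78.8%) overlapped those of Dp16 (47.7 to 64.1%) and Wild-type (48.4 to 66.2%). Tyrobp was in 74.1, 57.5, 71.8 and 48.3% of thinned spots, where the interval of Dp16 overlapped those of the sections with the transgenes. With 1 section per genotype, such intervals leave out variation between mice, and differences between genotypes were not tested.

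The 10 genes lowest with the transgenes were Ephb6, Taf2, Gpr26, Ryr3, Pigf, Ankmy2, Rbfox1, Homer3, Rpap3 and Cacnb1. Homer3, a postsynaptic scaffold, had 22.8 CPM in 5xFAD against 50.8 in Wild-type and 19.3 in 5xFAD-Dp16 against 41.7 in Dp16. Cacnb1, a calcium channel subunit, had 23.9 against 50.02 and 14.9 against 39.8 CPM, and the ephrin receptor Ephb6 8.69 against 30.2 and 6.14 against 18 CPM. Bsn, the presynaptic scaffold bassoon, had 81.5 CPM in 5xFAD against 176 in Wild-type and 64.9 in 5xFAD-Dp16 against 122 in Dp16, lower by -1.11 [-1.51 to -0.73] and -0.91 [-1.35 to -0.49]. Hpca was lower by -0.73 [-0.88 to -0.58] and -0.71 [-0.86 to -0.56].

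Of the 16 principal cell genes 15 were below 0 in both 5xFAD pairs, as were 33.5% of all genes, and 1, Hpca, was called, with medians of -0.23 and -0.42 against all genes. Of the CA3 list 5 of 9 were called lower, against 2.14% of all genes, with medians of -0.65 and -0.57. Bok was at -1.12 [-1.45 to -0.81] in 5xFAD/Wild-type and -0.50 [-0.81 to -0.19] in 5xFAD-Dp16/Dp16. CA3 names were fewer in the 5xFAD section, 9.09% for CA3_sr and 6.82% for CA3_so, against 19.7 and 13.4% in Wild-type, and the part of that make-up in the CA3 list was not tested. Presynaptic genes stood at -0.44 and -0.23 with 1 of 23 called, and calcium and calcineurin genes at -0.20 and -0.31 with 1 of 20. Of the presynaptic genes 20 of 23 were lower in both pairs, against 33.5% of all genes. Glutamate receptor and postsynaptic genes stood at -0.10 and -0.24. Of these, 18 of 29 were lower in both pairs, against the same 33.5%, and 0 were called lower. Snap25, a fusion protein of synaptic vesicles, was at 1102 CPM in 5xFAD against 1674 in Wild-type and 915 in 5xFAD-Dp16 against 1152 in Dp16.

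Immediate early genes report recent neuronal activity. Of 16 measured, 7 were higher in both 5xFAD pairs and 2 lower, against 21.5 and 33.5% of all genes, and 1, Nr4a2, was called, on the lower side. Their relative medians were 0.30 and 0.13. Fos was at 0.23 and 0.65, Egr1 at 0.21 and 0.58, Arc at -0.88 and 0.33 and Homer1 at 0.00 and -0.46 in 5xFAD/Wild-type and 5xFAD-Dp16/Dp16. Interneuron genes differed in direction. The peptide Vip was higher by 1.38 [0.20 to 2.65] and 1.33 [0.41 to 2.33], while the calcium buffer Pvalb was lower by -0.79 [-1.16 to -0.43] and -0.67 [-1.03 to -0.31]. Sst was at -0.72 and -0.43. Bc1 was higher by 0.43 [0.39 to 0.47] and 1.22 [1.18 to 1.26].

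The double difference, 5xFAD-Dp16/Dp16 minus 5xFAD/Wild-type on the log2 scale, sets the effect of the transgenes with the duplication against that without it. Its median over all genes was -0.0087. The 5 highest genes were Magi3 (3.42), Nfkbia (3.27), Thnsl1 (2.96), Sgk1 (2.74) and Dok4 (2.71). Sgk1, a kinase induced by glucocorticoids, rests on the most UMIs of these, with 79.8 CPM in 5xFAD-Dp16 against 42.7 in Dp16 and 26.1 in 5xFAD against 92.9 in Wild-type. Nfkbia, an inhibitor of NF-kappaB, had 21.9 against 3.79 and 15.2 against 25.4 CPM. The 5 lowest were Rnf144a (-3.36), Rilpl2 (-3.04), Trip4 (-2.95), Spats2 (-2.90) and 2610035D17Rik (-2.66), none above 26.6 CPM in any section. With 1 section per genotype a double difference carries the peculiarities of all 4 sections and was not tested.

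Plaque marks in the deposited table allowed a comparison within sections. In 5xFAD-Dp16 16 of 159 cluster 8 spots were marked as plaque and in 5xFAD 8 of 132, and in Dp16 and Wild-type 0. Spots were compared within the same fine names, which left 11 plaque against 49 unmarked spots in 5xFAD-Dp16 (CA3_sr and DG_mo) and 6 against 14 in 5xFAD (CA1_so). The unmarked spots took in spots marked as plaque neighbours. These were 9 in CA3_sr and 14 in DG_mo of 5xFAD-Dp16, and 8 in CA1_so of 5xFAD. Of 3279 genes, 140 (4.27%) were at least 1.5-fold higher in plaque spots in both sections and 243 (7.41%) lower, most on a handful of UMIs. Of 24 plaque-associated microglia genes 4 were called higher and 0 lower, with medians of 0.48 in 5xFAD-Dp16 and 0.36 in 5xFAD, where the medians of all genes were 0.00 and -0.04.

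Trem2 had 162 CPM in plaque spots against 85.1 in unmarked spots of 5xFAD-Dp16 and 138 against 74.4 in 5xFAD, with log2 ratios matched by fine name of 0.93 and 0.89. Plain sums over the same spots gave 1.17 [0.20 to 2.09] and 0.89 [-1.11 to 2.76]. Cst7 had 96.4 against 22.8 CPM in 5xFAD-Dp16 and 55.1 against 53.1 in 5xFAD. Ctsd had 649 against 436 CPM and 606 against 478 CPM in those sections, and Gfap 463 against 269 and 330 against 383 CPM. The plain log2 ratios of Gfap were 0.82 [0.26 to 1.36] in 5xFAD-Dp16 and -0.21 [-1.29 to 0.76] in 5xFAD, where it rested on 12 plaque UMIs. These intervals overlapped, and the sections compared different fine names. Myelin genes stood at -0.33 in both sections, with 3 of 17 called lower. The peptide Sst had 302 against 109 CPM in 5xFAD-Dp16 and 3139 against 308 CPM in 5xFAD, but 21 of its 32 and 93 of its 114 plaque UMIs came from 1 spot in each section.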

How the data were processed

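RNA was measured in 4 Visium sections, 1 per genotype. The deposited matrix holds raw UMI counts of 19090 genes, and the authors also deposited the percent of mitochondrial counts per spot. Space Ranger, Seurat and the mm10 build are named in the submitters' processing notes. Their versions, and the way in which region names, cluster numbers and plaque marks were assigned, are not stated in the sources used here. All deposited spots were kept.

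Counts were summed over the cluster 8 hippocampus spots of a section and scaled to their total (CPM). Sums have exact Poisson intervals, shares of spots exact Clopper-Pearson intervals and ratios exact conditional binomial intervals, at 95%. They cover counting error only and take spots as independent. Where a gene had no UMI, 3 UMIs stood as the floor. Genes of mean 10 CPM were compared (8021), and a gene is called when at least 1.5-fold higher, or lower, in both pairs of an effect. Spots were thinned to 5000 UMIs for shares. Plaque spots were compared with unmarked spots of the same fine name, plaque neighbours included. Gene positions and windows came from RefSeq for GRCm38.p6, with 17875 of 19090 symbols matched. A motif window spans 300 bases.

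Named genes were the 10 highest and 10 lowest of each comparison by the smaller ratio (segment genes: 10 highest and 5 lowest, ranked apart; double difference: 5 each way), the 3 members of highest level and the extremes of every list, and a fixed set. Other genes named here were chosen after their values were seen, as were the list of dendritically localised RNAs and the sequences printed. The spots and lists were chosen with earlier results of these data known. The calculations were tested on simulated data. Tools were Python 3.11.15, numpy 2.4.6, scipy 1.17.1, pandas 2.3.3, matplotlib 3.10.9, R 4.3.3 and edgeR 4.0.16, the last for TMM factors only.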

Additional observations from a re-analysis of the deposited data

Results flagged for a closer look

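The median of 2 gene lists lay on opposite sides of that of all genes in the 2 pairs of the same effect, and neither difference between pairs was tested. Relative to all genes, the dentate granule list stood at 0.57 in Dp16/Wild-type and -0.72 in 5xFAD-Dp16/5xFAD, and at 0.61 in 5xFAD/Wild-type and -0.36 in 5xFAD-Dp16/Dp16. The inhibitory neuron list stood at -0.51 in Dp16/Wild-type and 0.53 in 5xFAD-Dp16/5xFAD, and at -0.64 in 5xFAD/Wild-type and 0.51 in 5xFAD-Dp16/Dp16. Beside the dentate list, DG_mo made up 22.6% of the cluster 8 spots in 5xFAD-Dp16, 20.7% in Dp16, 21.2% in 5xFAD and 11.8% in Wild-type. Its part in the result was not tested. Beside the inhibitory list, Gad1, which makes GABA, was at 225 CPM in 5xFAD-Dp16, 142 in Dp16, 167 in 5xFAD and 340 in Wild-type.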

How the results depend on the processing

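Each genotype had 1 section, so no replicate was left out, and differences between genotypes cannot be told apart from differences between mice or sections. No paired analysis was possible because each genotype has 1 section. Counts of genes limited most calls: at 10 CPM a gene has about 9.21 UMIs in the shallowest section.

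The alternatives fixed first were another scaling, another summary over spots, another filter and another fold. Restriction to CA1 names was added after seeing the data. Of the summary values 83 of 124 alternatives stayed close to the first value, and the others follow. Of the list medians 1157 of 1204 stayed close and 47 moved, and these are not listed singly. Among the 47, 20 were in CA1 names and 8 were standardised by fine name. The cause was not tested.

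Genes called higher outside the segment in the Dp16 pairs (34) became 77 with TMM factors, 82 with median of ratios factors, 111 without mitochondrial, ribosomal protein and haemoglobin genes in the total, 54 in spots of at least 5000 UMIs, 208 at a mean of 1 CPM, 2 at 50 CPM, 139 in CA1 names and 1 at 2-fold. Those lower (243) became 107 with TMM factors, 101 with median of ratios factors, 592 at 1 CPM, 17 at 50 CPM, 437 in CA1 names and 25 at 2-fold. Genes called higher in the 5xFAD pairs (129) became 223 with the reduced total, 371 at 1 CPM, 22 at 50 CPM, 282 in CA1 names and 27 at 2-fold, and those lower (171) 390 at 1 CPM, 20 at 50 CPM, 271 in CA1 names and 17 at 2-fold. Leaving out plaque spots and their neighbours gave 145 higher and 249 lower in the 5xFAD pairs. The median double difference (-0.0087) was 0.033 with TMM factors and -0.026 standardised by fine name. The segment's relative median in Dp16/Wild-type (0.64) was 0.46 at 50 CPM and 0.49 in CA1 names.

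Genes called higher in plaque spots (140) became 648 with plain sums over spots and 38 at 2-fold. Those lower (243) became 109 with neighbours of plaque spots left out, 90 at 50 CPM and 49 at 2-fold. The share of spots with Cst7 or Itgax was 3.60% in 5xFAD-Dp16 and 0.855% in 5xFAD at 2 UMIs or more, and 23.5% in 5xFAD unthinned. The share with Gfap at 2 UMIs or more was 36.0% in 5xFAD-Dp16, 11.7% in Dp16, 39.3% in 5xFAD and 13.3% in Wild-type, and unthinned 76.1% in 5xFAD-Dp16, 56.0% in Dp16 and 57.5% in Wild-type.

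Of 4612 values of single genes under alternatives, 12 changed sign. In CA1 names these were Dp16/Wild-type for 2310010J17Rik (-0.34) and Wdr54 (0.39), 5xFAD-Dp16/5xFAD for Dyrk1a (-0.13) and Thnsl1 (-0.32), 5xFAD/Wild-type for Lrrc28 (0.0037), Taf2 (0.83) and Vamp3 (-0.018), and 5xFAD-Dp16/Dp16 for Rpap3 (0.12) and S100a11 (-0.69). With plain sums the plaque ratios of Papss1 in 5xFAD-Dp16 (0.22) and of Slain1 in 5xFAD-Dp16 (0.20) and 5xFAD (0.71) changed sign. Plain sums over only the spots matched by fine name kept the sign, at -2.24, -1.38 and -1.63 in that order.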

Other observations

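Genes of the cytosolic ribosome and of nuclear-encoded respiratory subunits formed a further group. Ribosomal protein genes summed to 121947 CPM in 5xFAD-Dp16, 118648 in Dp16, 130080 in 5xFAD and 93519 in Wild-type. Relative to all genes their median was 0.45 in Dp16/Wild-type and 0.07 in 5xFAD-Dp16/5xFAD, and 0.46 in 5xFAD/Wild-type and 0.11 in 5xFAD-Dp16/Dp16, with 0 of 83 called in either effect. At any size 58 were higher and 1 lower in both 5xFAD pairs, against 21.5 and 33.5% of all genes. In both Dp16 pairs 20 were higher and 3 lower, against 14.3 and 42.9% of all genes. The Wild-type section, lowest in these genes, was also the deepest, at a median of 9237 UMIs per cluster 8 spot, and the part of depth was not tested. The nuclear respiratory genes stood at 0.24, 0.07, 0.15 and 0.02 in the same order of pairs.

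The list of genes of the thalamus and habenula, which lie next to the hippocampus, summed to 277 CPM in cluster 8 against 146 CPM in the other hippocampus spots of 5xFAD-Dp16, 226 against 133 in Dp16, 425 against 226 in 5xFAD and 249 against 251 in Wild-type. Of 7 measured members 3 were at least 1.5-fold higher in cluster 8 in all 4 sections, against 1.81% of all genes, and 2, Tcf7l2 and Slc17a6, were called higher in the 5xFAD pairs. Tcf7l2, a thalamic transcription factor, was at 44.7, 28.5, 67.3 and 24.6 CPM in those sections. Blood genes summed to 666 CPM in 5xFAD-Dp16, 410 in Dp16, 783 in 5xFAD and 643 in Wild-type, and meningeal fibroblast genes to 58.7, 93.9, 81.5 and 83.4 CPM in that order.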
